A study of Homo sapiens with 12 samples.

Results

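Polycomb repressive complex 1 (PRC1) is the chromatin complex whose RING-type E3 ligases attach a single ubiquitin to histone H2A at silenced genes. Every PRC1 complex has a catalytic pair of RING1 or RNF2 with 1 PCGF protein. Canonical complexes add a CBX protein, whose chromodomain reads the trimethyl mark that PRC2 puts on histone H3, together with a PHC and an SCM subunit. Variant complexes carry RYBP or YAF2 in place of a CBX protein. Polycomb complexes are best known for keeping developmental genes such as the HOX clusters silent. The 9 genes described here are the chromodomain readers CBX2, CBX6, CBX7 and CBX8, the ligases RING1 and RNF2, and the PCGF subunits BMI1 (also called PCGF4), PCGF2 and PCGF6. They were chosen by name and matched by symbol to the Ensembl identifiers of the files, where they are 9 of 60662 genes. All 9 are among the 17807 genes that passed the filter on low RNA counts, and 8 are among the 12224 genes of the series table with ribosome footprints, in which BMI1 is not listed.

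The study asked how translation responds when the RNA modification m6A is depleted. HEK293T, an established human embryonic kidney cell line labelled wild type throughout, was exposed for 6 h to 20 µM STM2457, which blocks METTL3, the enzyme that writes m6A, in 0.2% DMSO, or to 0.2% DMSO alone. Both arms had 10% extra serum for the last 1 h, and cycloheximide, which stops elongating ribosomes, at 100 µg/ml for 3 min before lysis. Poly(A)-selected, strand-specific RNA-seq has 4 libraries per arm, and ribosome profiling (Ribo-seq) of 26 to 34 nt fragments has 2 per arm. Whether replicates came from separate cultures is not labelled, and p-values reflect only how far these libraries spread, possibly for technical reasons.

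RNA-seq libraries held 43291730 to 51645739 counts, and 3198063 to 4711513 footprint reads were recovered per Ribo-seq library. CPM here is the count scaled to a library total adjusted by TMM, which sets libraries relative to their shared genes. CPM values and their separation between arms therefore depend on that scaling. METTL3 RNA was at 83.3 ± 6.71 CPM with STM2457 and 75.7 ± 6.71 CPM with DMSO (SD, n = 4 each), an edgeR adjusted p of 0.104. The compound acts on the enzyme, so this level does not check its effect. All 9 genes of a list that HEK293T expresses were above 1 CPM, with summed levels of 1215 to 1252 CPM in STM2457 libraries and 1108 to 1148 CPM in DMSO libraries. Summed markers of fibroblasts (7 genes) were 18.4 to 19.8 CPM with STM2457 and 17.7 to 22.3 CPM with DMSO, and those of blood cells (5 genes, HBB at 0) 2.07 to 2.33 CPM with STM2457 and 2.10 to 2.40 CPM with DMSO. Those of epithelial carcinoma lines (6 genes, KRT19 at 0) were 54.3 to 55.4 CPM with STM2457 and 66.6 to 69.2 CPM with DMSO. In that list KRT18 was at 39.0 CPM with STM2457 and 51.9 CPM with DMSO (edgeR adjusted p = 1.25e-07). CDH1 (5.15 and 5.73 CPM), KRT8 (8.98 and 8.87 CPM) and EPCAM (1.68 and 1.64 CPM) did not pass the test. The part of the lower epithelial sum in the results was not tested. In bulk RNA, fewer cells that express a gene and less RNA per cell cannot be told apart.

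RefSeq promoter windows were at hand for 7 of the 9 genes, as 300 bases from 250 before to 50 after a start site (GRCh38.p14). CBX2 and CBX8 had no window, so nothing can be said here of their promoters. The windows of BMI1 and CBX6 are shown because they are the members' only ones with the palindrome CACGTG, the core E box bound by MYC and MAX and by MGA, a partner of PCGF6 in a variant complex. With TMM scaling, which sets libraries relative to their shared genes, BMI1 RNA rose with STM2457 and CBX6 did not pass the test; with spike-in scaling BMI1 did not pass and CBX6 was lower. Capitals mark the match, at base 181 of the BMI1 window (chr10:22320849-22321148, plus strand) and at base 130 of the CBX6 window (chr22:38872167-38872466, minus strand).
BMI1: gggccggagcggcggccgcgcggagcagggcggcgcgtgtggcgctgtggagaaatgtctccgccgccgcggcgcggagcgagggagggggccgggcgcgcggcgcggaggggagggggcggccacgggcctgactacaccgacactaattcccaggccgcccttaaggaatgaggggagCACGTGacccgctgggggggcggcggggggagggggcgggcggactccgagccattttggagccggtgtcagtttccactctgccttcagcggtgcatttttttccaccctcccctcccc
CBX6: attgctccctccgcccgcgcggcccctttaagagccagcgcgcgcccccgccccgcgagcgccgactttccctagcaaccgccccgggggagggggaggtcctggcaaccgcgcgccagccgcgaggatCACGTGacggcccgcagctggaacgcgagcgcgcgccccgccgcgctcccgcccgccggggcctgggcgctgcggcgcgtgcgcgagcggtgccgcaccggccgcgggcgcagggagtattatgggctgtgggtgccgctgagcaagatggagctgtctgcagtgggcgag
BMI1 has another window, without the palindrome. Of all 35116 windows of this length, 7.26% hold the palindrome, which reads the same on both strands. The BMI1 and CBX6 windows shown hold 36 and 47 CpG, against a median of 14 over all windows. The palindrome itself holds a CpG, so 7.26% is not the share among windows of like composition. The match is a description of letters and not of binding.

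Among the chromodomain readers, CBX8 and CBX2 rose while CBX6 and CBX7 did not pass the test. CBX8 (ENSG00000141570.11, chromosome 17), which also binds the leukaemia protein MLLT3, had 45.0, 40.8, 43.4 and 41.0 CPM in the STM2457 libraries, against 25.8, 25.2, 23.4 and 25.1 CPM in the DMSO libraries. The lowest STM2457 library lay well above the highest DMSO library. This 1.71-fold increase (0.77 on the log2 scale, SE 0.04, adjusted p = 1.53e-08 in the edgeR quasi-likelihood test) was the largest of the 9 genes. CBX2 (ENSG00000173894.11, chromosome 17), a reader that compacts nucleosome arrays and is needed for male sex determination, had 189, 172, 188 and 177 CPM with STM2457, against 135, 123, 121 and 135 CPM with DMSO. Again the arms did not overlap, and the rise was 1.41-fold (log2 fold change 0.50, SE 0.04, edgeR adjusted p = 9.99e-07). CBX8 and CBX2 both stayed higher when the ERCC spike-in RNAs set the scale, at log2 fold changes of 0.58 and 0.30. That scale moves the median of all genes by -0.19. It rests on ERCC shares of 0.389% to 0.408% of the counts in DMSO libraries and 0.415% to 0.466% in STM2457 libraries. The highest share was in STM2457 replicate 4.

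CBX6 (ENSG00000183741.11, chromosome 22), one of the less studied readers, had 280, 288, 270 and 296 CPM with STM2457, against 278, 288, 285 and 281 CPM with DMSO. These arms overlapped throughout, and the 95% interval of the log2 fold change ran from -0.06 to 0.07 (edgeR adjusted p = 0.928). CBX7 (ENSG00000100307.13, chromosome 22), the reader best known from pluripotent cells and from silencing of the CDKN2A locus, had 11.96, 10.8, 11.4 and 12.4 CPM with STM2457, against 12.7, 12.4, 13.1 and 12.4 CPM with DMSO. Most STM2457 libraries lay under the DMSO libraries, but the highest of them did not. Its log2 fold change was -0.12 (SE 0.05, edgeR adjusted p = 0.0932). Without STM2457 replicate 4 it passed the test, at -0.15 (edgeR adjusted p = 0.0468).

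The ligase genes gave narrow intervals around 0 with TMM scaling, and both were called lower with ERCC scaling, RING1 only with STM2457 replicate 4 included (without it -0.14, edgeR adjusted p = 0.0514). RNF2 (ENSG00000121481.11, chromosome 1), also called RING1B and the main H2A ligase of the complex in mouse embryonic stem cells, had 82.8, 81.9, 81.5 and 81.2 CPM with STM2457, against 84.0, 83.0, 80.4 and 81.0 CPM with DMSO. The STM2457 values fell inside the range of the DMSO values. The interval of its log2 fold change ran from -0.06 to 0.05 (edgeR adjusted p = 0.909). RING1 (ENSG00000204227.5, chromosome 6), its paralog, had 53.6, 57.2, 60.1 and 54.9 CPM with STM2457, against 56.8, 54.9, 56.2 and 55.9 CPM with DMSO. Here the STM2457 libraries spread more widely than the DMSO libraries, with an interval from -0.07 to 0.09 (edgeR adjusted p = 0.808).

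Of the PCGF subunits, BMI1 rose with TMM scaling and the other 2 did not pass the test. BMI1 (ENSG00000168283.14, chromosome 10) is a repressor of CDKN2A, first found as a gene that cooperates with MYC in mouse lymphoma. It had 97.3, 103, 98.5 and 99.0 CPM with STM2457, against 84.7, 84.6, 87.1 and 82.2 CPM with DMSO. All STM2457 libraries were above all DMSO libraries, by 1.17-fold (log2 fold change 0.23, SE 0.03, edgeR adjusted p = 2.02e-05), but with ERCC scaling the change was 0.04 and did not pass (edgeR adjusted p = 0.576). COMMD3 lies next to BMI1 and a readthrough transcript of both is annotated, so reads of such a transcript cannot be told apart from those of BMI1. The readthrough gene had 0 counts in every library. How reads shared by overlapping genes were assigned is not given, so this 0 does not show that the transcript was absent. COMMD3 itself had 9.41 ± 0.155 CPM with STM2457 and 10.5 ± 0.259 CPM with DMSO (SD, n = 4 each), a change opposite to that of BMI1 (log2 fold change -0.16, edgeR adjusted p = 0.0152). The part of a readthrough transcript in the BMI1 rise was not tested.

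PCGF2 (ENSG00000277258.5, chromosome 17), the MEL18 paralog of BMI1 in canonical complexes, had 48.5, 48.1, 48.9 and 50.3 CPM with STM2457, against 49.8, 49.6, 48.8 and 54.1 CPM with DMSO. The arms overlapped, and the log2 fold change was -0.05 (SE 0.04, edgeR adjusted p = 0.317). PCGF6 (ENSG00000156374.16, chromosome 10), the subunit of the variant complex with MGA and E2F6 that silences germline genes in mouse embryonic stem cells, had 47.1, 47.2, 43.9 and 45.6 CPM with STM2457, against 48.0, 49.3, 49.2 and 47.9 CPM with DMSO. Every STM2457 library was below every DMSO library, by a small amount. Its log2 fold change of -0.08 (SE 0.03) missed the threshold (edgeR adjusted p = 0.0590), but it passed with DESeq2 size factors (-0.10, edgeR adjusted p = 0.0334) and with a replicate block (edgeR adjusted p = 0.0476). In the RNA signal of the series table, tested with limma, PCGF6 (-0.17, adjusted p = 0.00172) and PCGF2 (-0.11, adjusted p = 0.0339) were both called lower, 2 of 8 members against 33.4% of all genes.

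**Figure D1:**
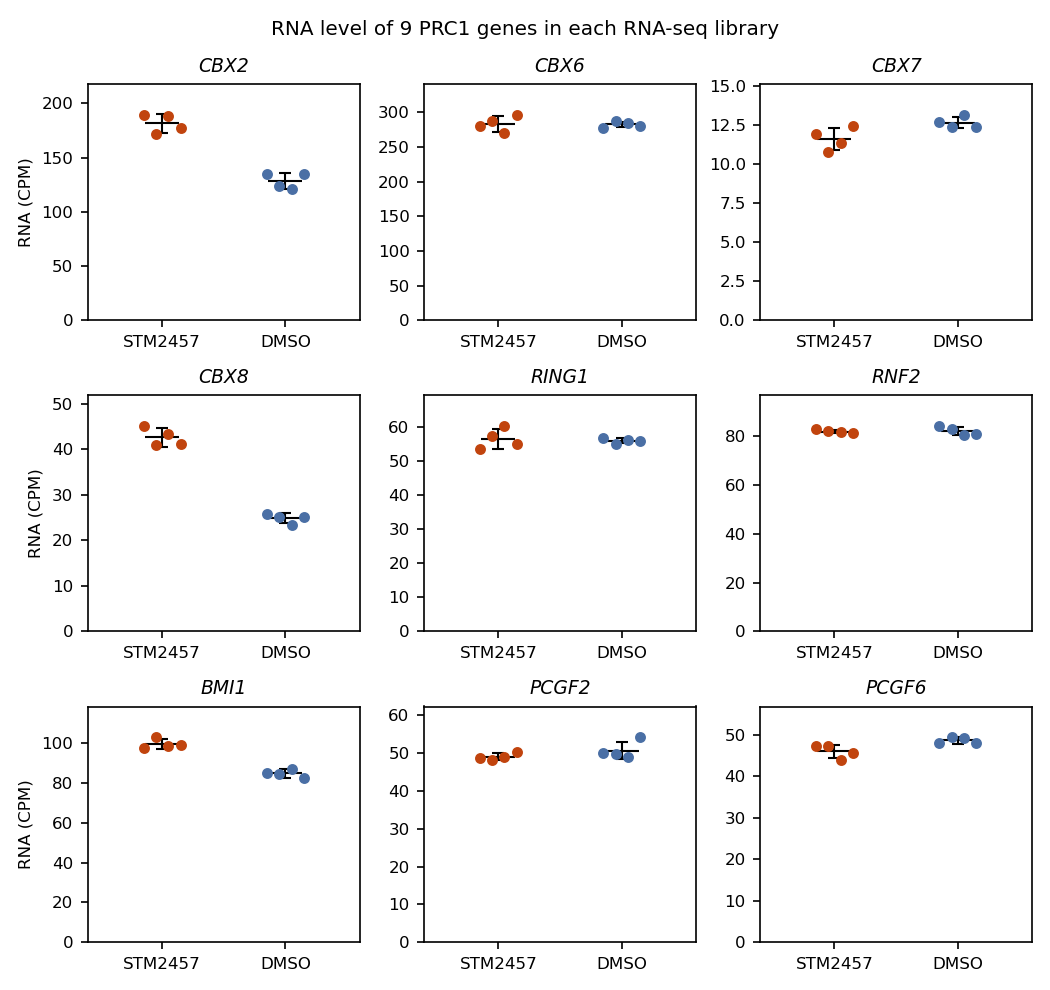
RNA level (CPM with TMM scaling, each axis from 0) of the 9 PRC1 genes in the 4 STM2457 and 4 DMSO libraries. Points are libraries, and bars show the mean and SD. CBX2, CBX8 and BMI1 were higher in every STM2457 library than in any DMSO library and PCGF6 lower, although the BMI1 difference did not pass with ERCC scaling.

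With TMM scaling 3 of the 9 genes were called higher with STM2457 and 0 lower at an edgeR adjusted p under 0.05. Over all genes tested, 26.2% were called higher and 21.6% lower, 47.8% together, so 3 of 9 is near the share over all genes. At an unadjusted p under 0.05 the lower count was 1 (PCGF6), against 25% of all genes. DESeq2 called 3 members higher and 0 lower, against 20.4% and 17.9% of all genes. In CPM, which carries the TMM scaling, the arms did not overlap for 3 members in the higher direction, against 24.9% of all genes. In the lower direction they did not overlap for 1, against 19.8%. With ERCC scaling 2 members were called higher, against 12.1% of all genes, and 6 lower, against 47.1%. Those 6 were CBX6, CBX7, RING1, RNF2, PCGF2 and PCGF6, at log2 fold changes from -0.32 to -0.18, which lie around the median shift of all genes given above. The largest principal component of the deviations from the arm means put replicates 1 and 2 of both arms on one side and replicates 3 and 4 on the other. In replicates 1 and 2 alone the log2 fold changes were 0.74 for CBX8, 0.47 for CBX2 and 0.23 for BMI1, and in replicates 3 and 4 alone 0.80, 0.51 and 0.22, all with edgeR adjusted p under 0.05.

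**Figure D2:**
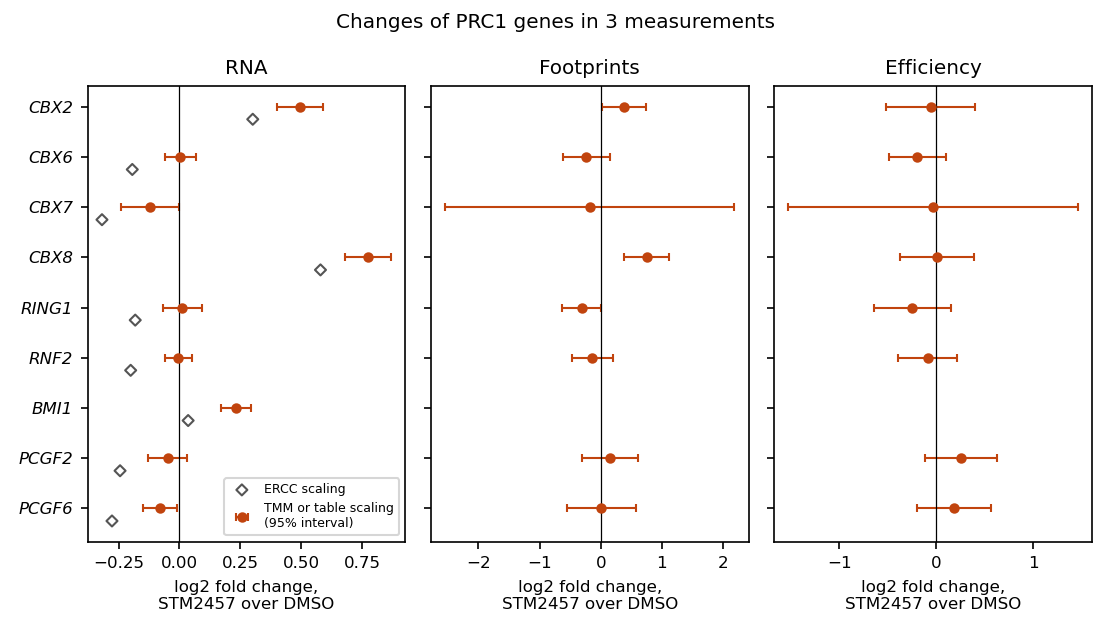
Log2 fold change of STM2457 over DMSO in RNA, footprints and efficiency, for the members measured. Filled points with bars are fits with their 95% interval, and open diamonds in the RNA panel use ERCC scaling, with which CBX6 and RING1 moved below 0 and 6 members in all were called lower. CBX8 and CBX2 stand to the right in RNA and in footprints, and every efficiency interval includes 0.

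Ratios of counts within a library do not depend on how libraries are scaled, and those among the CBX genes differed between the arms. These ratios compare arms only, since the files give no transcript lengths with which levels of different genes could be set side by side. CBX2 counts per CBX6 count were 0.674, 0.596, 0.698 and 0.598 in STM2457 libraries, against 0.486, 0.429, 0.425 and 0.481 in DMSO libraries. CBX8 counts per CBX7 count were 3.77, 3.78, 3.82 and 3.30 in STM2457 libraries, against 2.03, 2.03, 1.78 and 2.02 in DMSO libraries. In neither ratio did the arms overlap. Single genes already separate between the arms in 24.9% (higher) and 19.8% (lower) of all genes. How often ratios of other gene pairs separate was not counted, so separation of a ratio is only a description of these genes. CBX6 counts per CBX7 count averaged 24.4 ± 1.51 with STM2457 and 22.4 ± 0.717 with DMSO (SD, n = 4 each), also without overlap, although neither gene passed the test.

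CBX8 also gained on CBX2. CBX2 counts per CBX8 count averaged 4.26 ± 0.0758 with STM2457 and 5.17 ± 0.203 with DMSO (SD, n = 4 each), with no overlap. Among PCGF transcripts, BMI1 counts per PCGF6 count averaged 2.16 ± 0.0739 with STM2457 and 1.74 ± 0.0312 with DMSO, and BMI1 counts per PCGF2 count 2.03 ± 0.0743 with STM2457 and 1.68 ± 0.112 with DMSO, again without overlap. The ratio of the ligases, RNF2 per RING1, averaged 1.45 ± 0.0798 with STM2457 and 1.47 ± 0.0365 with DMSO, and the arms overlapped. The ratio of PCGF2 to PCGF6 also overlapped, at 1.07 ± 0.0498 with STM2457 and 1.04 ± 0.0612 with DMSO.

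**Figure D3:**
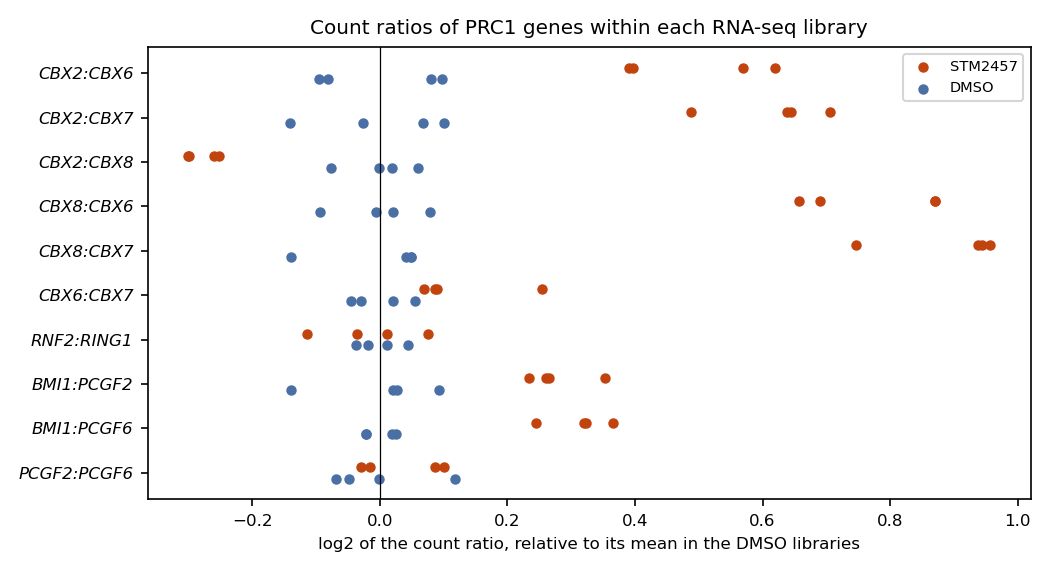
Ratio of the counts of 2 members in each RNA-seq library, as log2 relative to the mean of the DMSO libraries, for 10 pairs. Points are libraries (STM2457 above DMSO in each row). Ratios of CBX2 or CBX8 to CBX6 or CBX7 and of BMI1 to PCGF2 or PCGF6 lie to the right of all DMSO libraries, CBX6:CBX7 also does by a small amount, CBX2:CBX8 lies to the left, and RNF2:RING1 and PCGF2:PCGF6 overlap.

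Ribosome footprints of CBX8 and CBX2 were also higher with STM2457 in each library. CBX8 had a normalized footprint signal of 1014 and 859 with STM2457, against 566 and 540 with DMSO. CBX2 had 1758 and 1757 with STM2457, against 1246 and 1465 with DMSO. The footprint log2 fold changes were 0.75 (SE 0.14) for CBX8 and 0.38 (SE 0.14) for CBX2, in limma on the signal of the series table. In RNA they were 0.77 and 0.50 in edgeR on the counts. In the RNA signal of the series table, which the efficiency test uses, they were 0.74 and 0.43. In limma with 1 prior spread for all genes neither footprint change passed (adjusted p = 0.0749 and 0.215). This footprint test called 0 of the 8 members against 2.13% of 10906 genes. At an unadjusted p under 0.05 it had 2 members higher, against 12.6% of all genes, and 0 lower. Both passed with a prior spread that follows the mean signal (limma adjusted p = 0.000182 and 0.0203) and in edgeR on the recovered reads (adjusted p = 6.75e-05 and 0.0109). In these fits 2 of 8 members were called higher, against 9.59% and 10.2% of all genes, and 0 lower.

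The ligases had somewhat fewer footprints with STM2457, without passing any of these tests. RING1 had a signal of 1086 and 1003 with STM2457, against 1316 and 1272 with DMSO (log2 fold change -0.31, SE 0.12, limma adjusted p = 0.242). RNF2 had 1029 and 968 with STM2457, against 1046 and 1152 with DMSO (-0.14, SE 0.13, limma adjusted p = 0.587). CBX6 had 2871 and 3268 with STM2457, against 3347 and 3889 with DMSO (-0.24, SE 0.15, limma adjusted p = 0.433). In all 3 genes both STM2457 libraries were below both DMSO libraries. Leaving out 1 library at a time gave -0.34 to -0.13 for CBX6 and -0.21 to -0.067 for RNF2, with the smaller change without DMSO replicate 2 in each. With 2 libraries per arm, 28.4% of all genes had both STM2457 libraries below both DMSO libraries and 25.7% had them above, so this separation by itself is common.

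PCGF2 and PCGF6 footprints overlapped between arms. PCGF2 had 570 and 441 with STM2457, against 425 and 482 with DMSO (log2 fold change 0.15, SE 0.18). PCGF6 had 558 and 515 with STM2457, against 438 and 646 with DMSO (0.01, SE 0.22). CBX7 rested on 12 and 6 footprint reads with STM2457, against 29 and 3 with DMSO, and its change was not detectable at this depth (95% interval of the log2 fold change -2.54 to 2.18). The other members had a mean of 124 to 860 reads per library.

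Translational efficiency, the footprint signal divided by the RNA signal, was called for 0 of 8 members in the weighted limma interaction (0.642% of 10906 genes), with 0 at an unadjusted p under 0.05 (9.88% of genes), and for 0 in the edgeR interaction (4.79% of genes). For CBX8 it was 1.45 and 1.23 with STM2457, against 1.36 and 1.30 with DMSO (mean RNA signal of the arm as divisor), so the STM2457 values bracketed the DMSO values. The interval of the log2 change in efficiency ran from -0.37 to 0.39 for CBX8 and from -0.52 to 0.41 for CBX2, wide beside the changes in RNA. RING1 had an efficiency of 1.12 and 1.04 with STM2457, against 1.30 and 1.26 with DMSO (log2 change -0.25, interval -0.65 to 0.15). Its arms did not overlap, but how often efficiencies separate over all genes was not counted, so this is only a description. PCGF2 had 0.641 and 0.496 with STM2457, against 0.442 and 0.502 with DMSO, with overlap (log2 change 0.26, interval -0.11 to 0.63). Without STM2457 replicate 1 the PCGF2 change was 0.074, and without STM2457 replicate 2 it was 0.44.

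The authors' deposited table gives 1 efficiency per arm, with no error. In the authors' deposited table CBX6 had the highest efficiency of the 8, at 2.06 with STM2457 and 2.32 with DMSO, above the upper quartile of all genes (1.42 with STM2457 and 1.41 with DMSO). PCGF2 had the lowest in the authors' deposited table, at 0.576 with STM2457 and 0.483 with DMSO, below the lower quartile (0.633 with STM2457 and 0.643 with DMSO). The RNA signal of that table is smaller per deposited count for CBX6 (0.111) than for PCGF2 (0.384), against a median of 0.313 over 12190 genes. The region counted is not given in the sources used here, and the part of this difference in the order of efficiencies was not tested.

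**Figure D4:**
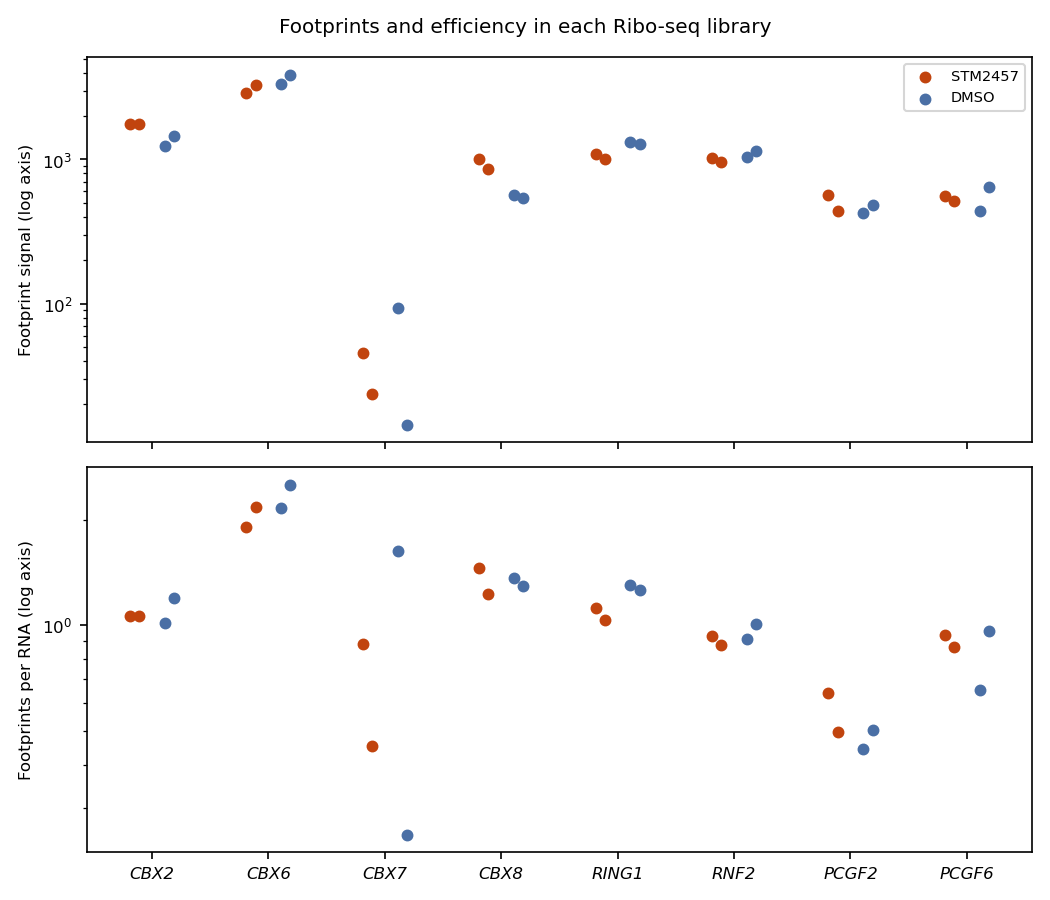
Footprint signal (top) and efficiency (bottom, footprint signal over the arm's mean RNA signal) in each Ribo-seq library, both on log axes, for the 8 PRC1 genes in the series table. Points are libraries, STM2457 left of DMSO for each gene. CBX2 and CBX8 footprints are higher in both STM2457 libraries, their efficiencies are intermixed, and CBX7 spreads widely on few reads.

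CBX2 and CBX8, which both rose, are neighbouring protein-coding genes on chromosome 17 in RefSeq, and CBX6 and CBX7 lie on chromosome 22 with the APOBEC3 genes between them. Of 7 other subunit genes of canonical PRC1 listed here, 6 were tested, and 2 rose and 3 fell, against 26.2% and 21.6% of all genes. PHC3 (0.48) and PHC2 (0.15), polyhomeotic subunits that polymerize through SAM domains, rose, but with ERCC scaling PHC2 was at -0.05 and did not pass. Their paralog PHC1 fell by 0.20 on the log2 scale (edgeR adjusted p = 0.00441), and SCMH1, an SCM subunit, fell by 0.23. The median log2 fold change of the list was -0.09, against 0.00 for all genes tested. The ERCC scale gave 1 higher and 4 lower, against 12.1% and 47.1% of all genes. These are changes in RNA. In footprints the log2 fold changes were -0.25 for PHC3, -0.004 for PHC2, 0.02 for PHC1 and 0.16 for SCMH1. None of these passed in limma with 1 prior spread for all genes.

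Among 24 genes of the variant complexes, 12 rose and 0 fell, against 26.2% and 21.6% of all genes. Their median change was 0.09 on the log2 scale. DESeq2 gave 11 and 0, against 20.4% and 17.9% of all genes. Scaling by the ERCC RNAs gave 5 higher and 12 lower, against 12.1% and 47.1% of all genes. BCOR (0.53), the corepressor of the PCGF1 complex, and AUTS2 (0.65), a subunit of PCGF3 and PCGF5 complexes that recruits the acetyltransferase EP300, stayed higher with ERCC scaling at 0.34 and 0.45. KDM2B (0.33), which brings the PCGF1 complex to unmethylated CpG islands, stayed higher at 0.14 (edgeR adjusted p = 0.0272), and PCGF3 (0.31) was at 0.11 with ERCC scaling and did not pass (edgeR adjusted p = 0.0752). In PRC2, which writes the mark that CBX proteins read, 5 of 14 genes rose and 3 fell (median 0.03). The ERCC scale gave 3 and 8. The shares over all genes just given for each scale apply here too. In RNA the accessory subunits JARID2 (0.60), EPOP (0.53) and LCOR (0.39) rose, and PHF19 fell by 0.37 on the log2 scale. Each had the same direction and call on the ERCC scale. In footprints the log2 fold changes were 0.62 for JARID2, 0.68 for EPOP, -0.24 for LCOR and -0.33 for PHF19. None of these passed in limma with 1 prior spread for all genes.

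The list for PR-DUB, the deubiquitinase that removes ubiquitin from H2A, had the highest median of the 5 lists (0.21). It had 7 of 11 genes higher and 2 lower, and 5 and 4 with ERCC scaling. Over all genes, 26.2% were higher and 21.6% lower with TMM scaling, and 12.1% and 47.1% with ERCC scaling. The 4 genes with the smallest p were FOXK2 (0.59), ASXL1 (0.57), ASXL2 (0.94) and MBD5 (0.72), of which ASXL1 and ASXL2 are cofactors of the catalytic subunit BAP1. In footprints ASXL3 rose by 1.20 and OGT, the O-GlcNAc transferase, fell by 1.44 on the log2 scale (limma adjusted p = 0.0388 each), while in RNA ASXL3 also rose, by 0.85 (edgeR adjusted p = 1.16e-06), and OGT was at -0.04 (edgeR adjusted p = 0.750). The efficiency change did not pass for OGT (-1.28, weighted limma adjusted p = 0.163) or for ASXL3 (0.43, weighted limma adjusted p = 0.743). With ERCC scaling RNA was lower for OGT (-0.23, edgeR adjusted p = 0.0132) and higher for ASXL3 (0.66, edgeR adjusted p = 6.56e-07). These 2 genes were chosen after their values were seen. The HP1 genes, whose chromodomains read another histone H3 mark, had 0 of 3 higher and 1 lower, CBX5, which fell by 0.15 on the log2 scale. CBX1 (-0.07) and CBX3 (-0.05) did not pass, and all 3 were lower with ERCC scaling.

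**Figure D5:**
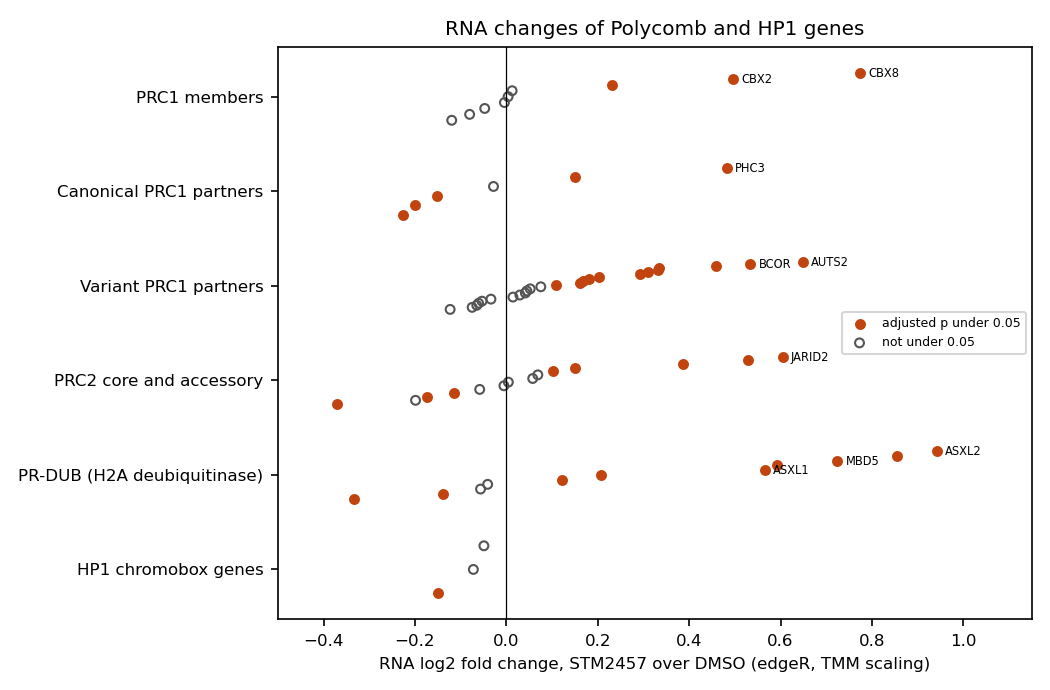
RNA log2 fold change of STM2457 over DMSO with TMM scaling for the 9 PRC1 genes and 5 related lists. Filled points passed the edgeR test at an adjusted p under 0.05, and labels mark some of the genes above 0.45. Increases outnumber decreases in the variant PRC1 and PR-DUB lists. With ERCC scaling, however, 12 of the 24 variant genes were lower, against 47.1% of all genes.

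Over all 12 libraries of both assays, the genes whose deviations from the DMSO mean lay nearest to those of CBX8 were USP54, HOXB9 and NKX2-5, at Euclidean distances of 0.175, 0.229 and 0.231 on the log2 scale. The median distance over 10864 genes was 1.93. In RNA their log2 fold changes were 0.79, 0.85 and 0.84, and in footprints 0.72, 0.80 and 0.84. These genes were picked for this likeness, so their values describe it and do not test it.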

How the data were processed

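RNA-seq of 8 libraries and Ribo-seq of 4 were used, grouped by the labels' treatment. The submitters' processing notes name GRCh38.p12 and list, without roles, STAR 2.7.3a, SAMtools 1.10, Subread 2.0.3, featureCounts, UMI-tools 1.1.2, FastQC 0.11.9, DESeq2 and bedtools 2.29.2. Raw counts per gene, and for 92 ERCC spike-in sequences, are in the deposited RNA-seq files. The deposited series table holds a normalized signal per library for 12224 genes, the authors' efficiency ratio per arm and the authors' log2 change of that ratio. Its columns named WT were read as DMSO, since every sample is labelled wild type and DMSO is the only other arm. All footprint values (100%) were within 0.1 of a whole multiple of 1 read's worth per library, so reads were recovered.

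Counts were tested in R 4.3.3 by the quasi-likelihood test of edgeR 4.0.16 (TMM, filterByExpr, ERCC left out, Benjamini-Hochberg over 17807 genes, threshold 0.05). Footprints were tested with limma 3.58.1 on log2(signal + 1) for 10906 genes (at least 10 recovered reads per library on average), so those fold changes are on that scale, and efficiency as the interaction of assay and treatment with a weight per assay. Given beside the footprint test are edgeR on recovered reads and limma with a trended prior, the second added after the data were seen. DESeq2 1.42.0 and other scalings, filters, pseudocounts and left-out libraries were alternatives. The members, lists and tests were chosen with earlier results of these data known. Named were all 9 members, the 4 genes of each list with the smallest RNA p, and the 3 genes most like the member that rose most. SCML4 did not pass the filter, and 1 gene of the lists is not reported here. Promoter windows are from RefSeq.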

Additional observations from a re-analysis of the deposited data

How the results depend on the processing

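CBX8 and CBX2 kept direction and call in RNA under every alternative run, and BMI1 under all but ERCC scaling, with and without STM2457 replicate 4 (0.04 and 0.07). Of the members, 0 were called lower in RNA. This count was 1 with DESeq2 size factors, 6 with ERCC scaling, 5 with ERCC scaling and no STM2457 replicate 4 (RING1 no longer passed), 2 with the series table signal and 0 to 1 when each library was left out. ERCC scaling gave 2159 genes higher and 8383 lower, 2464 and 7517 without STM2457 replicate 4, and the table signal, over fewer genes, 2913 higher. CBX6 RNA turned to -0.012 with DESeq2 size factors, -0.0077 with DESeq2, -0.0042 with no filter, -0.0061 in replicates 1 and 2, -0.19 and -0.18 with ERCC scaling with and without STM2457 replicate 4, and -0.040 with the table signal. RING1 RNA turned to -0.0028, -0.024, -0.18, -0.14 and -0.064 with DESeq2 size factors, in replicates 1 and 2, with both ERCC scalings and with the table signal, and RNF2 RNA to 0.012 in replicates 3 and 4. The causes were not tested.

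Members called higher in footprints numbered 2 with edgeR and with the trended prior, against 0. All footprint calls, 168 higher and 64 lower, became 345 and 122 with a pseudocount of 20, 1112 and 607 with edgeR, 1046 and 669 with the trended prior, and 0 and 0 with no filter, with a replicate block, or with any 1 library left out (0 to 0). Efficiency calls, 15 higher and 55 lower, became 327 and 449 with a shared spread, 94 and 428 with edgeR, 25 and 88 with the trended prior, 0 and 2 with RNA-seq replicates 1 and 2 only, and 0 and 1 with a replicate block. Leaving out each Ribo-seq library gave 6 to 16 higher and 24 to 66 lower. The CBX8 efficiency change was -0.012 with edgeR. Left-out libraries gave log2 ranges of -0.018 to 0.027 for CBX6 RNA, -0.018 to 0.039 for RING1 RNA, -0.019 to 0.0072 for RNF2 RNA, -1.48 to 1.13 for CBX7 footprints, -0.036 to 0.33 for PCGF2 footprints -0.27 to 0.29 for PCGF6 footprints and 0.26 to 0.50 for CBX2 footprints. For efficiency they were -0.17 to 0.062 for CBX2, -1.34 to 1.27 for CBX7, -0.11 to 0.13 for CBX8, -0.094 to 0.47 for PCGF6, 0.074 to 0.44 for PCGF2, -0.30 to -0.088 for CBX6 and -0.16 to -0.018 for RNF2.

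A replicate block in RNA gave 3 members higher and 1 lower (PCGF6). The correlations of deviations between same-numbered RNA-seq libraries were 0.151, 0.227, 0.148 and 0.0763, not all over 0.1, and 1 of the 4 numbers correlated best with its own, so the numbers were not taken to pair the samples. For Ribo-seq the correlation was 0.0055. The number of footprint reads limits what can be said of CBX7, and 2 Ribo-seq libraries per arm limit all footprint and efficiency comparisons.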
